A study of Homo sapiens with 4 samples.

Results

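Y RNAs are small noncoding RNAs of the Ro ribonucleoprotein, and the human genome has 4 genes for them, RNY1, RNY3, RNY4 and RNY5. They were selected by gene symbol, with no measured value in the rule, and all 4 were found among the 26485 symbols of the table. Their levels were read from small RNA libraries made of HCT116 Drosha k.o. cells. HCT116 is a line from a human colon carcinoma, and the knockout removes Drosha, the nuclease that starts the maturation of most miRNAs. Both groups carry the knockout. The control cells received a lentiviral vector without insert (pLenti-GIII-CMV-RFP-2A-Puro), and the treated cells a pLenti vector carrying CD95L (gene symbol FASLG). For HCT116 cells the study's methods name a mutant form of CD95L with an early stop codon. Infected cells were selected with 3 µg/mL puromycin for 2 days, and total RNA was taken at the 50 h time point. For cells of the same kind the study's methods count 50 h from plating, not from infection. There were 2 libraries per group, called vector and CD95L replicates 1 and 2 here. The study's methods say that infected cells were pooled and that the work was done in duplicate, without saying where the duplicates parted. The p-values therefore speak only of the spread between libraries, part of which may be technical. Those of limma also draw on the spread of all other tested genes. Both vector titles, and neither CD95L title, bear the mark (# 2). What it stands for is not given, and any batch it might mark cannot be told apart from the groups.

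RNA polymerase III transcribes Y RNAs from promoters that lie upstream of the gene. The 2 ends of the RNA pair into a stem, Ro60 binds the lower part of that stem, and the La protein binds the run of U at the 3′ end. The loop between the strands differs most between the Y RNAs and binds other proteins, among them nucleolin and PTBP1. Human Y RNAs are known for a part in the start of DNA replication, and in dying cells they are cut into shorter fragments that small RNA libraries record.

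The sequences of RNY1, RNY4 and RNY5 are shown because they set both the fold and the number of places to which a fragment can map. They are given 5′ to 3′ in the letters of the genome (hg38, RefSeq gene bounds), and the capitals mark 2 words near the ends that each of them holds, TGGTCCGA and TTGACT.
RNY1: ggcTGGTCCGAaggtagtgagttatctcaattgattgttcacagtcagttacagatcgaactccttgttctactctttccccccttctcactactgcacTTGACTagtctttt
RNY4: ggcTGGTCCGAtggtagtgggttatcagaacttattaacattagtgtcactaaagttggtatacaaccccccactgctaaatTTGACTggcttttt
RNY5: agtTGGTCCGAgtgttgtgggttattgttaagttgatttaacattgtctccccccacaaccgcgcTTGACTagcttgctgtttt
TGGTCCGA lay at positions 4 to 11 in each of them. TTGACT ended 8 bases before the 3′ end in RNY1 and RNY4 and 13 bases before it in RNY5. In Y RNAs the ends that carry these words form the terminal stem. Each of them ended in a run of T, of 5 bases in RNY4 and 4 bases in the others, the stretch that La binds as U. Minimum free energy folds made with RNAfold paired 60.2% of the bases of RNY1, 66.7% of RNY4 and 61.9% of RNY5, at -34.4, -31.2 and -25.3 kcal/mol. Over their whole length RNY1 and RNY4 had 63.7% identity, RNY4 and RNY5 60.4%, and RNY1 and RNY5 55.9%. At the 5′ end RNY1 and RNY4 were the closest of these pairs, with the same base at 23 of the first 25 positions.

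The 4 genes lie within 45.8 kb of chromosome 7 (hg38). RNY5 (84 bases) spans chr7:148941488-148941571 and RNY4 (96 bases) chr7:148963315-148963410, both on the plus strand, as is RNY3 (102 bases). RNY1 (113 bases) spans chr7:148987136-148987248 on the minus strand. From RNY5 through RNY4 and RNY3 to RNY1 the genes are 21.7, 20.3 and 3.28 kb apart, so RNY3 and RNY1 form a close pair, while RNY5 and RNY4 stand alone. No RefSeq gene overlaps any of the 4. GENCODE v44 places 1 lncRNA over RNY5 on the same strand, and none of its other genes overlaps RNY1, RNY3 or RNY4. Reads from that lncRNA and from RNY5 cannot be told apart.

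**Figure D1:**
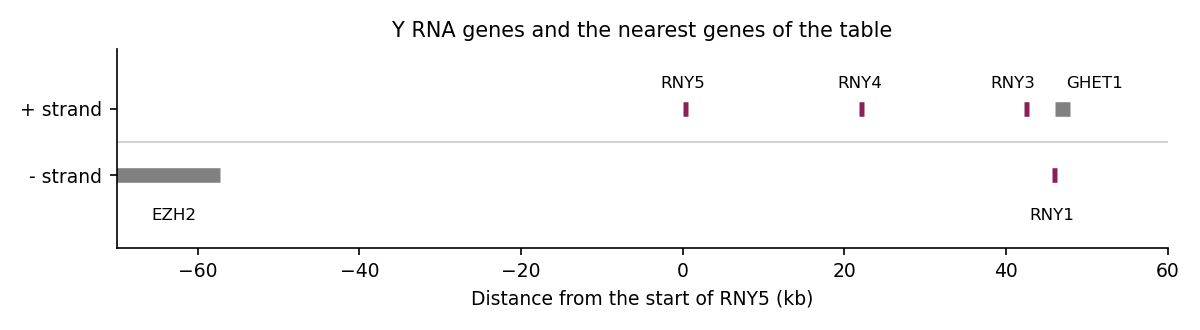
The Y RNA genes (purple) and the nearest genes listed in the table on each side (grey) by distance from the start of RNY5 in kb, with the plus strand above and the minus strand below. RNY5, RNY4 and RNY3 share the plus strand and RNY1 lies on the minus strand, 3.28 kb from RNY3. EZH2 runs on past the left edge.

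The 60 bases before RNY1, RNY4 and RNY5 are shown for the TATA box, the element that fixes the start in promoters of this type. Capitals mark TATAA and its reverse complement TTATA, which overlap in RNY4.
RNY1 upstream: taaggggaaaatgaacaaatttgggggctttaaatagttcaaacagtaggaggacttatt
RNY4 upstream: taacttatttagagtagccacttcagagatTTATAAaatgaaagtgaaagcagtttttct
RNY5 upstream: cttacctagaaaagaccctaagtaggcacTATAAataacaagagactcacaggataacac
TATAA began 29 bases before the start of RNY4 and 31 before RNY5. Of 35116 RefSeq promoters (GRCh38.p14), 6.08% held it on either strand within the 50 bases before the start. These letters were not found in the 50 bases before RNY1. The octamer ATTTGCAT, or ATGCAAAT on the other strand, was not found within 250 bases before any of these, and 1.63% of the same promoters held it. A match is a description of the letters and no evidence of a bound factor.

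Stretches of RNY1 and RNY4 recur in the genome, whereas those of RNY5 seldom do. GENCODE v44 lists 756 genes under the name Y_RNA, and the table held no symbol for any of them. All 55 words of 30 bases in RNY5 were found exactly once in the main chromosomes of hg38. Of the 84 such words in RNY1 3 were found once (3.6%, with a median of 4 copies and up to 20). Of the 67 words in RNY4 0 were found once (median 8 copies, up to 18). With words of 50 bases the share found once was 75.0% for RNY1, 34% for RNY4 and 100% for RNY5. A fragment that began at the 5′ end was found once from 29 bases in RNY1, 30 in RNY5 and 43 in RNY4. One that ended at the 3′ end was found once from 31 bases in RNY4, 46 in RNY1 and 20 in RNY5, the shortest length searched. Each of the 3 full sequences was found once. The table holds neither read lengths nor positions, and the sources used here do not say how reads that map to several places were treated. The levels of RNY1 and RNY4 are therefore uncertain, since their reads may be split with, or lost to, near-identical copies. Whether that differed between the libraries was not tested.

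**Figure D2:**
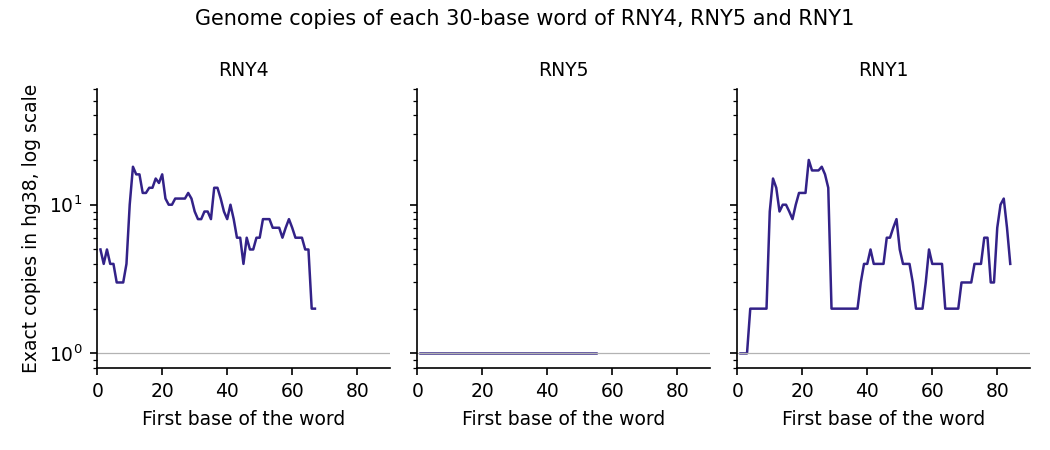
Number of exact copies in hg38 (both strands, log axis) of each word of 30 bases, by the position of its first base in RNY4, RNY5 and RNY1. RNY5 stays at 1 copy throughout, whereas RNY4 reaches 18 and RNY1 20 copies.

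The libraries held 22488145 to 25163566 reads counted to genes, so that 1 read was worth 0.0397 to 0.0445 CPM (reads per 1000000 counted reads). FASLG, the gene delivered, had 1.16 and 2.94 CPM in vector replicates 1 and 2 against 94.9 and 90.5 CPM in CD95L replicates 1 and 2, so the labels fit (limma log2 difference 5.00 ± 0.30, adjusted p = 3.55e-05). DROSHA, knocked out in both groups, left fragments at 10.1 to 13.6 CPM in all 4 libraries, which checks no label. Vector replicate 1 stood apart. Of 16127 tested genes 72 were at least 3-fold higher in it than in each other library, 48 of them miRNAs and 21 copies of SNORD113 to SNORD116, against 5 to 14 such genes in the others. For the differences between groups, values without it are given where they move by over 1.5 times or change sign. Of 8 epithelial markers 7 had a mean of at least 1 CPM, with summed levels of 136 to 137 CPM (vector) and 122 to 127 CPM (CD95L). The summed levels were 5.76 to 6.70 and 6.59 to 11.7 CPM for 4 leukocyte markers and 51.1 to 57.7 and 42.5 to 64.3 CPM for 3 endothelial markers, in the same order of groups. The 4 fibroblast markers summed to 21.9 to 29.1 CPM in vector and 34.2 to 38.8 CPM in CD95L libraries. A mean of at least 1 CPM was also reached by 3 of the 4 leukocyte, 2 of the 3 endothelial and 4 of the 4 fibroblast markers. KRT8 and KRT18 made up most of the epithelial sum and VWF most of the endothelial sum. COL1A2 stood at 4.58 and 4.97 CPM in vector and 11.1 and 11.9 CPM in CD95L libraries. EPCAM and CDH1 stood at 1.31 to 3.26 CPM and the leukocyte marker CD3E at 2.84 to 6.36 CPM. No marker was at 0 in any library. The part of the epithelial and fibroblast differences in the Y RNA levels was not tested.

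RNY4 was the most abundant Y RNA by far, and no other gene of the table had more reads in any library. It took 4535792 and 3898412 reads in vector replicates 1 and 2 and 3194991 and 2876253 reads in CD95L replicates 1 and 2. These were 18.2% (18.19 to 18.22%, exact 95% interval), 15.5%, 14.0% and 12.8% of all reads. RNY5, known for the distinct ribonucleoproteins it forms, ranked 10th in vector replicate 1 and 11th in the other libraries, at 15835, 14577, 15765 and 14327 CPM in the same order. RNY1 ranked 14th to 19th, at 10811, 9874, 9467 and 8407 CPM. RNY3 was the rarest and ranked 97th to 111th, at 1137, 1045, 1078 and 1007 CPM. The order RNY4, RNY5, RNY1, RNY3 was the same in each of the 4 libraries, and no neighbours in it overlapped between any 2 libraries. Counting error was far below the spread between replicates. It was at most 0.664% of the level (RNY3), while the SD between replicates was 4.79 to 11.4% of the mean. Intervals cover counting error only, because PCR copies of 1 molecule are counted as separate reads.

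Dividing by gene length changed the distances between the Y RNAs but not their order. Whether the reads came from whole Y RNAs or from fragments is not known, so neither scale measures the number of Y RNAs. Per 100 bases of gene, RNY4 had a level of 175506 ± 19979 CPM with the vector and 139291 ± 8571 CPM with CD95L (SD, n = 2). RNY5 had 18103 ± 1059 and 17912 ± 1211 CPM per 100 bases, RNY1 9153 ± 586 and 7909 ± 663, and RNY3 1070 ± 63.5 and 1022 ± 49.0. On this scale RNY4 lay 9.30- to 10.1-fold above RNY5 in the vector libraries and 7.74- to 7.81-fold above it in the CD95L libraries. The level of RNY5 was 1.97- and 1.99-fold that of RNY1 in vector replicates 1 and 2 and 2.24- and 2.29-fold in CD95L replicates 1 and 2.

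**Figure D3:**
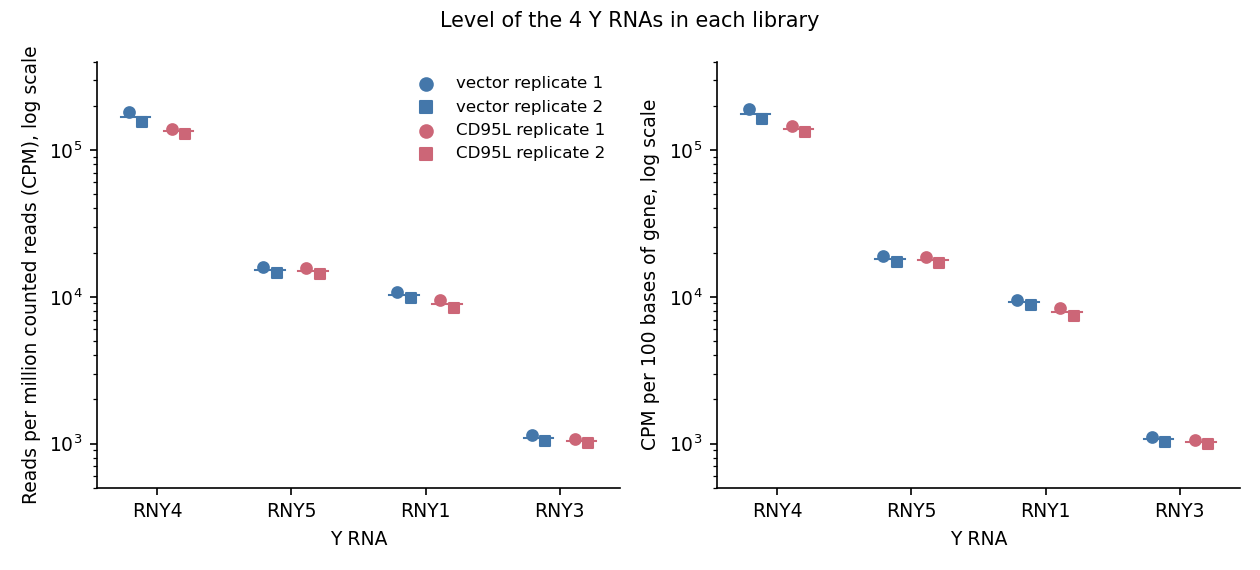
Level of each Y RNA in the 4 libraries on log axes, as CPM (left) and as CPM per 100 bases of gene (right). Points are libraries and short lines are group means of 2 libraries. RNY4 lies between 127901 and 182048 CPM and RNY3 between 1007 and 1137 CPM, and replicate 2 lies below replicate 1 for every Y RNA in both groups.

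To see whether CD95L expression went with a change in Y RNAs, the groups were compared for each of them. RNY4 had 168485 ± 19180 CPM with the vector and 133719 ± 8228 CPM with CD95L (SD, n = 2), a ratio of 0.794. Both CD95L libraries lay below both vector libraries, but the 15386 CPM between the nearest libraries of the groups was less than the 27125 CPM between the vector replicates. The difference was -0.33 ± 0.25 (SE) on the log2(CPM + 1) scale and did not pass the threshold (limma, adjusted p = 0.932, 95% interval -0.87 to 0.21). That interval spans ratios from 0.547 to 1.16. Without vector replicate 1 the difference was -0.21 (limma, adjusted p = 1.00). edgeR on the recovered reads gave -0.32 (adjusted p = 0.940).

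For RNY1, too, the CD95L libraries both lay below the vector libraries, while RNY5 and RNY3 overlapped. RNY1 had 10342 ± 663 CPM with the vector and 8937 ± 749 CPM with CD95L (SD, n = 2), a difference of -0.21 ± 0.25 (SE, limma, adjusted p = 0.954, 95% interval -0.75 to 0.33). Without CD95L replicate 2 the difference was -0.13, and without vector replicate 1 it was -0.15. The gap of 407 CPM between the groups was again less than the range within either, 937 CPM (vector) and 1060 CPM (CD95L). RNY3 differed by -0.07 ± 0.24 (limma, adjusted p = 0.981, 95% interval -0.60 to 0.47), with 1091 ± 64.8 and 1043 ± 49.9 CPM. Leaving out vector replicate 1 moved it to -0.0046, and leaving out CD95L replicate 2 to -0.016. RNY5 differed by -0.02 ± 0.24 (limma, adjusted p = 0.998, 95% interval -0.55 to 0.52), with 15206 ± 890 and 15046 ± 1017 CPM. Its difference was 0.04 without vector replicate 1 and 0.05 without CD95L replicate 2. The intervals leave room for changes in either direction, so they do not show that any of the Y RNAs stayed the same. limma draws the variance of each gene toward that of all tested genes, so the SE was 0.243 to 0.247 for each Y RNA. These intervals and p-values therefore do not measure the spread of a Y RNA alone. Since cells were measured in bulk, fewer cells with a Y RNA and fewer of its reads per cell cannot be told apart. Nor can whole Y RNAs and their fragments.

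Of the 4 Y RNAs 0 passed the threshold with limma and 0 with edgeR, where 0.0062% and 0.366% of all tested genes did. The smallest unadjusted p was 0.208 with limma and 0.290 with edgeR, both for RNY4. All 4 had a negative difference, as had 50.8% of all tested genes, and their median was -0.14 against -0.005 over all genes. Without vector replicate 1 the median over all genes was 0.029. Both CD95L libraries lay below both vector libraries for 2 of 4 Y RNAs, against 19.0% of all tested genes. None lay above them, against 16.0% of all tested genes. No statement about Y RNAs as a group can be read from counts over 4 genes.

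**Figure D4:**
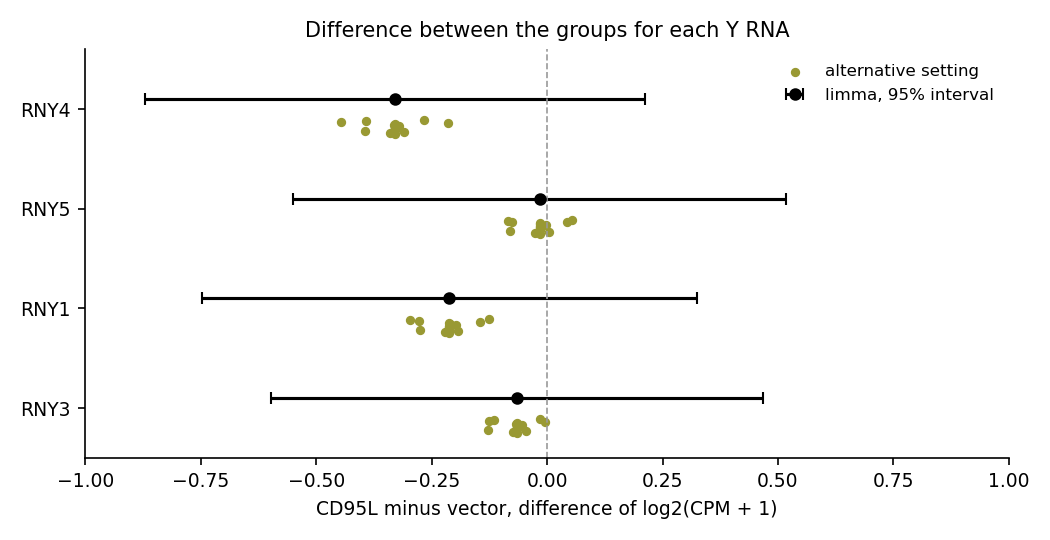
Difference between the groups (CD95L minus vector, log2(CPM + 1)) for each Y RNA. Black points and bars are the limma estimate and its 95% interval, and the small points are the 16 alternative settings. Every interval crosses 0, RNY4 lies farthest left at -0.33, and RNY5 has settings on both sides of 0.

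Together the Y RNAs took 20.98 and 18.04% of all reads in vector replicates 1 and 2 and 16.6 and 15.2% in CD95L replicates 1 and 2. The difference between the group means was -3.64 percentage points (exact permutation test, two-sided, p = 0.33, the smallest that 2 against 2 libraries allow). Leaving out vector replicate 1 gave -2.17 points, and leaving out vector replicate 2 gave -5.11 points. With RNY4 left out of both the sum and the total, the other 3 Y RNAs took 3.40 and 3.02% of the reads in vector and 3.06 and 2.72% in CD95L libraries, and the groups overlapped (difference -0.317 points, exact permutation p = 0.667). That difference was -0.127 points without vector replicate 1 and -0.149 points without CD95L replicate 2. Because the Y RNAs fill so much of each library, their own level moves the CPM of every other gene. Counting CPM over the reads outside the Y RNAs moved the median difference of all genes from -0.005 to -0.06 and that of RNY4 to -0.39 (limma, adjusted p = 0.900).

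The makeup of the Y RNA pool does not depend on how libraries are scaled against each other, and for RNY4, RNY5 and RNY3 it differed between the groups by more than between replicates. RNY4 made up 86.8 and 85.9% of Y RNA reads in vector replicates 1 and 2 and 84.1 and 84.3% in CD95L replicates 1 and 2. RNY5 made up 7.55 and 8.08% in vector and 9.51 and 9.45% in CD95L libraries. Its difference of 1.66 percentage points compares with 0.533 points between the vector replicates and 0.0580 points between the CD95L replicates. RNY3 made up 0.542 and 0.579% against 0.650 and 0.664%. RNY1 made up 5.15 and 5.47% against 5.71 and 5.54%, a difference of 0.314 points that was less than the 0.321 points between the vector replicates. The RNY1 difference was 0.153 points without vector replicate 1 and 0.474 points without vector replicate 2, and with RNY4 left out of the pool it turned to -3.12 points. For none of the 4 did the groups overlap, and each exact permutation p was 0.33, the smallest possible. Among all tested genes the levels in CPM, which are not shares of a pool, did not overlap for 19.0% (lower with CD95L) and 16.0% (higher). RNY4 fills most of the pool, so a nearer background for the other shares is the ratio of RNY4 to each gene. That ratio was lower in both CD95L libraries for 42.3% of all other tested genes. With RNY4 left out of the pool, RNY3 made up 4.09 and 4.10% in vector and 4.10 and 4.24% in CD95L libraries. There its groups overlapped (exact permutation p = 0.667), while RNY5 stayed higher in both CD95L libraries. The shares of 1 pool sum to 100%, so the 4 differences are not independent of each other.

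**Figure D5:**
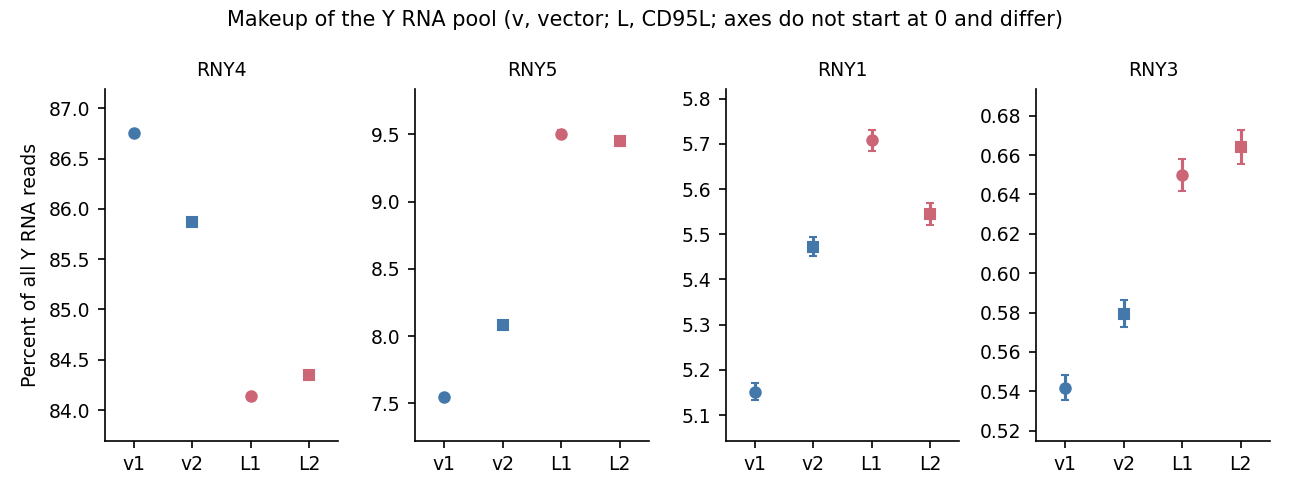
Share of each Y RNA among all Y RNA reads in each library (v1 and v2, vector replicates 1 and 2; L1 and L2, CD95L replicates 1 and 2), with exact 95% intervals that cover counting error only. The axes differ and do not start at 0. RNY4 is lower and RNY5, RNY1 and RNY3 are higher in both CD95L libraries than in both vector libraries.

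Ratios between pairs of Y RNAs show the same reads without the sum of the pool. The log2 ratio of RNY4 to RNY5 was 3.52 and 3.41 in vector replicates 1 and 2 and 3.15 and 3.16 in CD95L replicates 1 and 2, a difference of -0.31. It was -0.26 without vector replicate 1. The difference for RNY4 to RNY3 was -0.26, and -0.21 without that library. The difference for RNY4 to RNY1 was -0.12, and -0.067 without it. In all 3 ratios both CD95L libraries lay below both vector libraries (exact permutation p = 0.33 for each). The ratio of RNY4 to 42.3% of all other tested genes did the same.

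Outside RNY4 the log2 ratios were steadier between the vector replicates, 0.0017 to 0.0113 apart against 0.102 to 0.113 for the ratios of RNY4. Between the CD95L replicates they were not, at 0.0333 to 0.0735 apart against 0.0124 to 0.0457. The ratios among RNY1, RNY3 and RNY5 were chosen after their values had been seen. The log2 ratio of RNY5 to RNY1 was 0.55 and 0.56 in vector and 0.74 and 0.77 in CD95L libraries, a difference of 0.20 between groups whose replicates were 0.011 and 0.033 apart. It ranged from 0.18 to 0.21 when each library was left out in turn. The log2 ratio of RNY1 to RNY3 was 3.25 and 3.24 in vector and 3.13 and 3.06 in CD95L libraries (difference -0.15). That of RNY5 to RNY3 was 3.8 in both vector libraries and 3.87 and 3.83 in CD95L libraries (difference 0.05, and 0.029 without CD95L replicate 1). Leaving out each library in turn gave -0.18 to -0.11 for RNY1 to RNY3. Each exact permutation p was 0.33. The ratio of RNY5 to the gene was higher in both CD95L libraries for 17.4% of all other tested genes, and the ratio of RNY1 to the gene was lower in both for 30.3%. Within the Y RNA reads outside RNY4, RNY5 took 57.0 and 57.2% in vector and 59.9 and 60.3% in CD95L libraries, and RNY1 took 38.9 and 38.7% against 36.0 and 35.4%.

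The level of each Y RNA also moved with the replicate number. Replicate 2 lay below replicate 1 for all 4 Y RNAs in both groups, by 14.9% for RNY4, 8.67% for RNY1, 8.06% for RNY3 and 7.95% for RNY5 in vector cells. In CD95L cells it lay 8.34, 11.2, 6.55 and 9.12% below in the same order. Across all 16127 tested genes the same-numbered libraries did not deviate together, with a correlation across genes of -0.00198 between the deviations of vector and CD95L replicate 1 from their group means.

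The genes whose profile over the 4 libraries was most like that of a Y RNA were sought among 403 other genes whose mean reached 100 CPM, by the root mean square distance of log2(CPM + 1) centred on each gene's mean. Nearest to RNY4 were SPEN (distance 0.014; 141, 120, 106 and 99.1 CPM in vector replicates 1 and 2 and CD95L replicates 1 and 2), ZBED4 (0.025) and ANKRD11 (0.032), all protein coding. Nearest to RNY5 were the C/D box snoRNAs SNORD30 (0.0064; 10289, 9360, 10154 and 9225 CPM) and SNORD50A (0.020) and the H/ACA box snoRNA SNORA76A (0.022). SNORA76A was also nearest to RNY3 (0.012), before LOC100289580 (0.023) and SON (0.026). Nearest to RNY1 were MIR3928 (0.037), TRIM25 (0.038) and DYRK1A (0.041). Among themselves RNY3 and RNY5 were the closest pair (0.029) and RNY4 and RNY5 the farthest (0.16). These distances rest on 4 libraries and describe them only.

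Of the genes beside the locus, the nearest in the table was EZH2 (chr7:148807383-148884291), which codes for a histone methyltransferase, on one side and the lncRNA GHET1 (chr7:148987527-148989429) on the other. No other gene of the table lies between the Y RNA genes. EZH2 fragments stood at 13.1 and 12.04 CPM in vector and 8.17 and 9.78 CPM in CD95L libraries, with no overlap (difference -0.45, limma, adjusted p = 0.923). GHET1 stood at 1.36 and 2.23 CPM against 2.58 and 2.85 CPM, also with no overlap (difference 0.43, limma, adjusted p = 0.923). Neither passed the threshold. Of all tested genes 19.0% were lower with CD95L without overlap, as EZH2 was, and 16.0% higher, as GHET1 was.

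Genes of the Y RNA pathway were seen as mRNA fragments at low levels, and none passed the threshold. Such fragments in a small RNA library are not a measure of the mRNA. Of 21 tested genes for Ro60 (TROVE2), La (SSB) and other proteins known to bind Y RNAs, 0 passed in either direction with limma or edgeR, and their median difference was -0.06 against -0.005 over all genes. The most abundant were NCL, which codes for nucleolin (66.3 ± 3.55 CPM with the vector and 63.5 ± 2.71 CPM with CD95L, SD, n = 2), and PTBP1, a splicing regulator (64.0 ± 7.73 and 54.8 ± 0.449 CPM). Both CD95L libraries lay below both vector libraries for 7 of the 21 and above them for 2, against 19.0 and 16.0% of all tested genes. Of 7 tested genes for nucleases and polymerases of Y RNA 3′ ends and decay, 0 passed (median -0.09). Among the 7, both CD95L libraries lay below both vector libraries for 1 and above them for 0, against the same 19.0 and 16.0%. PARN, a poly(A)-specific ribonuclease, had 93.6 and 88.3 CPM in vector and 72.8 and 128 CPM in CD95L libraries, and ERI1, an exonuclease, had 11.9 ± 0.284 and 11.1 ± 0.202 CPM.

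Of 22 tested genes for RNA polymerase III and the factors of its upstream promoters, 0 passed (median -0.05). The CD95L libraries both lay below both vector libraries for 2 and above them for 1, against 19.0 and 16.0% of all tested genes. POLR3A, the largest subunit, had 14.0 ± 2.02 CPM with the vector and 13.0 ± 0.0831 CPM with CD95L, and POU2F1, the octamer-binding factor, had 23.4 ± 0.786 and 25.7 ± 1.64 CPM (SD, n = 2). Of 20 tested genes of replication initiation, 0 passed (median -0.07), and both CD95L libraries lay below both vector libraries for 6 and above them for 0, against the same 19.0 and 16.0% of all tested genes. ORC1, of the origin recognition complex, had 42.7 and 38.6 CPM against 40.8 and 59.9 CPM. MCM7, of the replicative helicase, stood at 72.6 CPM in vector replicate 2 and at 16.6 to 18.8 CPM in the other libraries. Its intron holds a miRNA cluster, and without read positions the reads of the cluster and of MCM7 cannot be told apart.

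Other RNA polymerase III transcripts did not share 1 direction. Of the 11 tested, 6 had a positive and 5 a negative difference (median 0.09), and 0 passed with limma or edgeR. Both CD95L libraries lay below both vector libraries for 4 of the 11, VTRNA2-1 among them, and above them for 1. Over all tested genes the shares were 19.0 and 16.0%. VTRNA2-1, named with the vault RNAs, stood at 7430 and 6503 CPM in vector and 6252 and 6033 CPM in CD95L libraries (difference -0.18, limma, adjusted p = 0.959). RMRP, the RNA of RNase MRP, stood at 2314 and 3547 CPM against 4350 and 3383 CPM (difference 0.42, limma, adjusted p = 0.923). Set against the sum of the 4 VTRNA genes, Y RNA reads were 19.7- and 19.3-fold as many in vector and 18.9- and 17.7-fold as many in CD95L libraries.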

How the data were processed

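Small RNA libraries of total RNA from 2 vector and 2 CD95L samples were analysed. The authors trimmed reads with TrimGalore, aligned them to hg38 with TopHat (the submitters' processing notes also name Bowtie2) and counted reads per gene with HTSeq. The sources used here give no versions. The deposited values are CPM per gene and library. Columns that the authors deposited from their own edgeR comparison (average log2 CPM, log2 fold change, p-value, its adjusted form) were not used. Reads could be recovered, since 100% of values came out as whole reads within 0.01 of a read. A count of 0 allows up to 0.119 to 0.133 CPM (3 counts). Replicates differed far beyond counting noise (chi-square per degree of freedom 35.8 in vector and 43.6 in CD95L cells).

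The main test was limma 3.58.1 (R 4.3.3) on log2(CPM + 1) with group as the only term, over the 16127 genes whose mean reached 1 CPM. It was two-sided, with Benjamini-Hochberg adjustment over all genes and a threshold of 0.05. Fold changes on this scale understate the change of low genes. edgeR 4.0.16 (quasi-likelihood, TMM) called 72 of 19686 genes on the recovered reads and served with DESeq2 1.42.0 as an alternative. Single values per library were compared by an exact permutation test (scipy 1.17.1). Sequences were read from hg38 with samtools 1.23.1, and folds made with RNAfold 2.7.2. The sequence of RNY3 and what rests on it are not reported here. Coordinates came from RefSeq (GRCh38.p14), the strand from GENCODE v44, and for RNY5 from its match to the other 5′ ends. The members and lists were chosen with earlier results of these data known. Named were the Y RNAs, DROSHA and FASLG, the 2 most abundant and any called genes of each list, the nearest genes by RefSeq position (the table holds none), and the 3 nearest profiles per Y RNA. Alternatives changed scaling, pseudocount, filter, variance model, tool, pairing and libraries.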

Additional observations from a re-analysis of the deposited data

How the results depend on the processing

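RNY1, RNY3 and RNY4 had a negative difference under all 16 alternatives, between -0.30 and -0.13, -0.13 and -0.0046, and -0.45 and -0.21 in that order. None of the 4 passed the threshold under any (adjusted p from 0.711 to 1). Of these alternatives, the filters, the variance trend and the replicate block cannot change a difference, and the pseudocounts hardly move it at these levels. Their agreement in sign was therefore fixed in advance. RNY5 turned positive with upper quartile factors (0.0036), without vector replicate 1 (0.044) and without CD95L replicate 2 (0.053). It ranged from -0.085 to 0.053 with 1 library left out. The share of RNY1 among Y RNA reads, 0.314 percentage points higher in CD95L cells, turned to -3.12 with RNY4 left out of the total. Shares of 1 pool depend on what else the pool holds. With the 10 most abundant other genes left out of the total, the difference in the Y RNA share was -4.21 percentage points.

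Over all genes limma called 1 higher and 0 lower. With 1 library left out it called 2 to 4 higher and 1 to 80 lower. It called 0 higher with a pseudocount of 0.1 or no filter, and 27, 30 and 28 lower with TMM factors, DESeq2 size factors and a mean-variance trend. edgeR called 6 higher and 66 lower, and DESeq2 6 and 40. The causes were not tested. The replicate numbers do not pair the samples by any label. With the replicate block, limma called 9 higher and 71 lower genes and left RNY4 at -0.33 (adjusted p = 0.999). With the block the log2 ratio of RNY4 to RNY5 differed by -0.31, as without it. A block cannot change a difference of means when each replicate number has 1 library per group, so neither value is a check.

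With 2 libraries per group, the limma interval for RNY4 spanned ratios from 0.547 to 1.16. Counting error was at most 0.664% of the level of a Y RNA, and the part of depth in the interval was not tested.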
